A study of Homo sapiens with 12 samples.

Results

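The genes described here encode the machinery that prepares, starts and carries out DNA replication, together with the G1/S regulators, checkpoint proteins and histone chaperones that act in S phase. A list of 44 such genes was taken, chosen with earlier results of these data known. Every probe with 1 of their symbols was collected from the deposited table. Of these genes, 42 had a named probe, with 60 probes in all, out of 7331 named genes and 16381 probes. FANCA and FANCD2 had no named probe, so their signals were not analysed here. For each gene the probe with the highest mean signal over the 12 arrays was used, and 14 of the genes had more than 1 probe.

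HT29 cells, a colorectal cancer line that carries a mutant p53, received 1 of 3 double-stranded RNAs by lipid reverse transfection at 5 nM, and RNA was taken 24 h later. The groups were siLUC, a non-targeting siRNA against luciferase, and siLRH-1 #1 and siLRH-1 #2, which are different siRNAs against the nuclear receptor LRH-1 (gene NR5A2). Each group held 4 arrays, described as independent biological replicates, and the question was which genes depend on LRH-1. All groups were transfected, and untransfected cells were not analysed here. A single cell line and a single time were used, and each siRNA can have effects of its own.

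Signals are given as log2 values, so a difference of 1 is a doubling, and a gene was called at an adjusted p under 0.05 in limma over all 16381 probes. The level of NR5A2 was not analysed here. Of 11 markers of colon epithelium, 10 had a named probe. Their siLUC means ran from 6.86 (CDX2) to 13.45 (EPCAM), above the array medians of 6.56 to 6.57. The fibroblast gene COL1A2, the 1 of 6 fibroblast markers with a named probe, was at 5.95. Of 4 immune markers 2 had a named probe, CD79A at 6.24 and CD68, a lysosomal protein abundant in macrophages, at 7.65, above the array medians. CEACAM5 was the 1 epithelial marker called, lower with both siRNAs (adjusted p = 0.0376 and 0.0352). The second siLRH-1 #2 array stood apart, with 50 probes that exceeded every other array by 0.5 or more, against at most 1 in any other array. None of these 50 was a member probe used here (0 of 42).

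Cells enter S phase when cyclin E with CDK2 completes the phosphorylation of the retinoblastoma protein and frees E2F factors, which switch on the replication genes. Before that, CDC6 and CDT1 load the MCM ring onto origins, and the ring becomes an active helicase only when CDC45 and the GINS complex join it. In the intestine this programme runs in the dividing cells of the crypt, and it is commonly raised in colorectal tumours.

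The promoters of the members were examined first, because E2F binding is the shared control for which this gene class is known. RefSeq windows (GRCh38.p14, from 250 bases before to 50 after the start) matched 37 of the 44 genes, FANCA and FANCD2 among them. CDK2, E2F8, MCM4, MCM5, DSCC1, FANCI and ATAD2 had no match. The E2F letters TTTCCCGC, TTTGGCGC, TTTGCCGC or TTTCGCGC were found on either strand in 22 of the 37 (59.5%), against 3.31% of 35116 promoters. The CCAAT letters were in 56.8% of the members' windows and in 34.6% of all, and the letters TTTGAA of the CHR element in 5.41% and 15.2%. The 35116 promoters were not limited to the named genes of the arrays or to the brighter ones. The bases just before the start are shown for the member that fell most and for E2F2, CDC25A and E2F3, which moved in 3 different ways across the siRNAs. Capitals mark E2F and CCAAT letters on either strand, which did not overlap, and each sequence is 120 bases long, 5′ to 3′ along the gene.
MCM10, chr10:13161438-13161557, plus strand: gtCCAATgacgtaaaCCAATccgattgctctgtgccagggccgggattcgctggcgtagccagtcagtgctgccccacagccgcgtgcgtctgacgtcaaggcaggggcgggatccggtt
E2F2, chr1:23531234-23531353, minus strand: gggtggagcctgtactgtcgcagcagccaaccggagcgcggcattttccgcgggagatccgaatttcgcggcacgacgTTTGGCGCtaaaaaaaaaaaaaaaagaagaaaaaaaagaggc
CDC25A, chr3:48188418-48188537, minus strand: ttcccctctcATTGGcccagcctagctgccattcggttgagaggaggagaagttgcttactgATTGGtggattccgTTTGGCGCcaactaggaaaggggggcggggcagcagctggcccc
E2F3, chr6:20401759-20401878, plus strand: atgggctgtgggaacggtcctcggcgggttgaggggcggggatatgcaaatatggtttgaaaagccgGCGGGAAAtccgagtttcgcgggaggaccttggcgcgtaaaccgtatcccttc

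Of the 42 members, 12 fell with siLRH-1 #1 against siLUC (MCM10, CDC45, BARD1, CDC25A, E2F2, EXO1, FEN1, MCM4, GINS2, CHEK1, MCM7 and MCM6), and 1, E2F3, rose. Among all named genes 5.17% were called lower and 5.05% higher in this comparison. The members were brighter than other genes (median mean signal 9.49 against 7.41), and among named genes above the median probe signal 7.64% were called lower and 7.24% higher. In all, 29 members lay below zero and 13 above, with a median of -0.08 on the log2 scale, against 0.01 over all named genes. For each of the 13 called members the 4 siLRH-1 #1 arrays lay apart from the 4 siLUC arrays. The calls used these same arrays, so this is not separate evidence. Over all members the arrays lay apart downward for 16 and upward for 2, where 8.77% and 9.78% of named genes did so. The number that fell was 7 without siLRH-1 #1 replicate 4 and 8 without siLUC replicate 4. It was 9 to 13 without any other array.

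With siLRH-1 #2, 6 of the 42 members (14.3%) were called, near the 14.4% of named genes above the median probe signal and against 10% of all named genes. CDC25A and CHEK1 fell, and ATAD2, CDC7, BARD1 and E2F3 rose, so that 2 of 42 were lower and 4 higher, where 4.88% of named genes were called lower and 5.14% higher. Among named genes above the median probe signal the shares were 7.14% and 7.30%. Here 29 members lay above zero and 13 below, with a median of 0.08, against 0.01 over all named genes. The arrays lay apart downward for 3 members and upward for 8, where 8.13% and 9.71% of named genes did so. The number that rose depended on single arrays. It was 1 when siLUC replicate 2 was left out. It was 2 when siLUC replicate 1 or 3 was left out, and likewise for siLRH-1 #2 replicates 1, 2 and 4. When dim probes were left out and the p-values were adjusted over the brighter probes alone, 8 members rose.

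**Figure D1:**
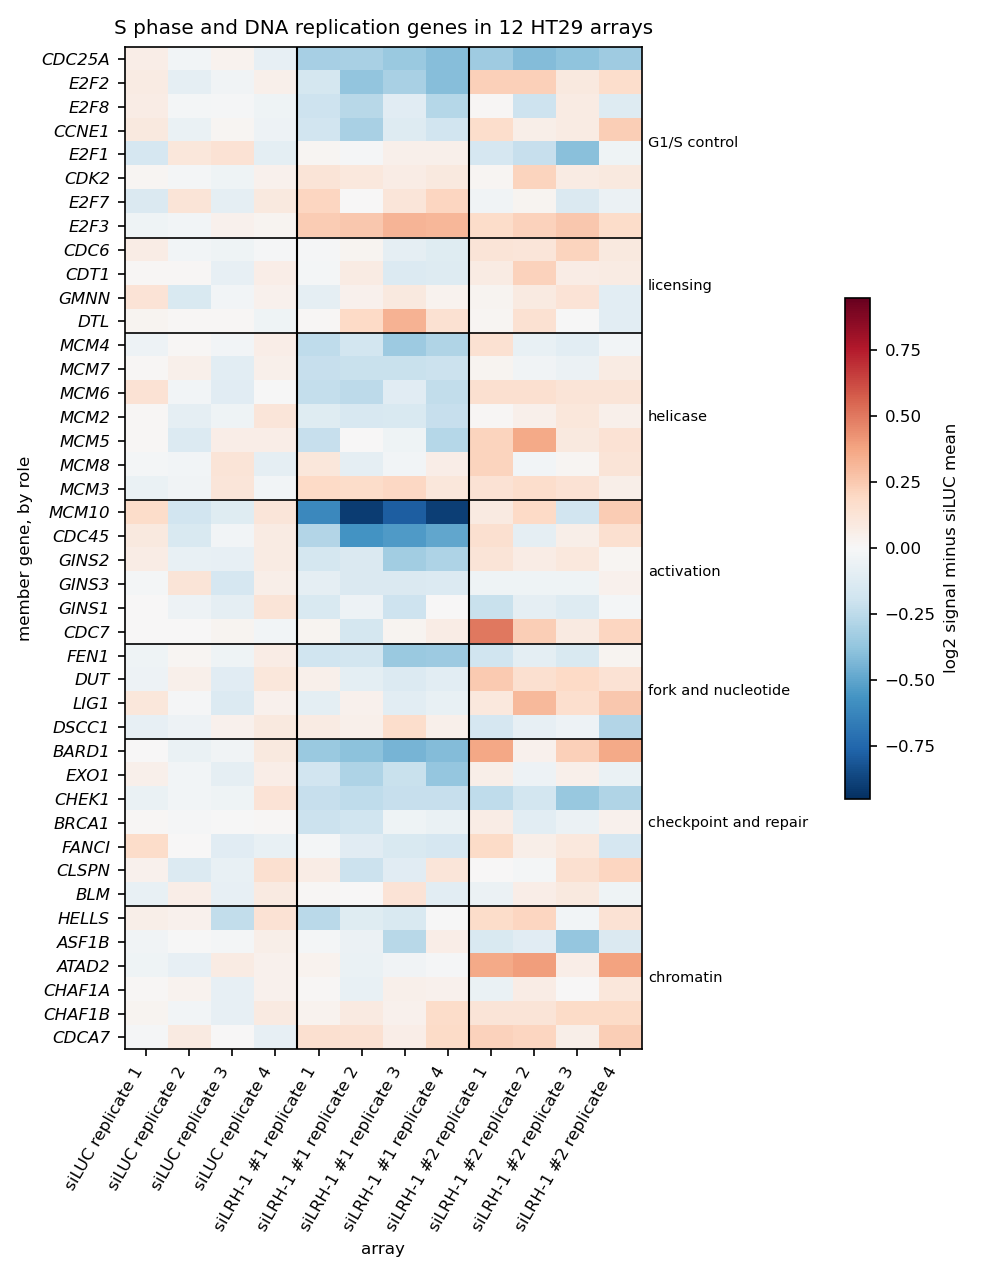
Log2 signal of each of the 42 members (rows, grouped by role) in each of the 12 arrays (columns), shown as the difference from the mean of the 4 siLUC arrays, with blue for lower and red for higher. MCM10 and CDC45 are the darkest blue rows under siLRH-1 #1, while CDC25A and CHEK1 are blue under both LRH-1 siRNAs and E2F3 is red under both.

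**Figure D2:**
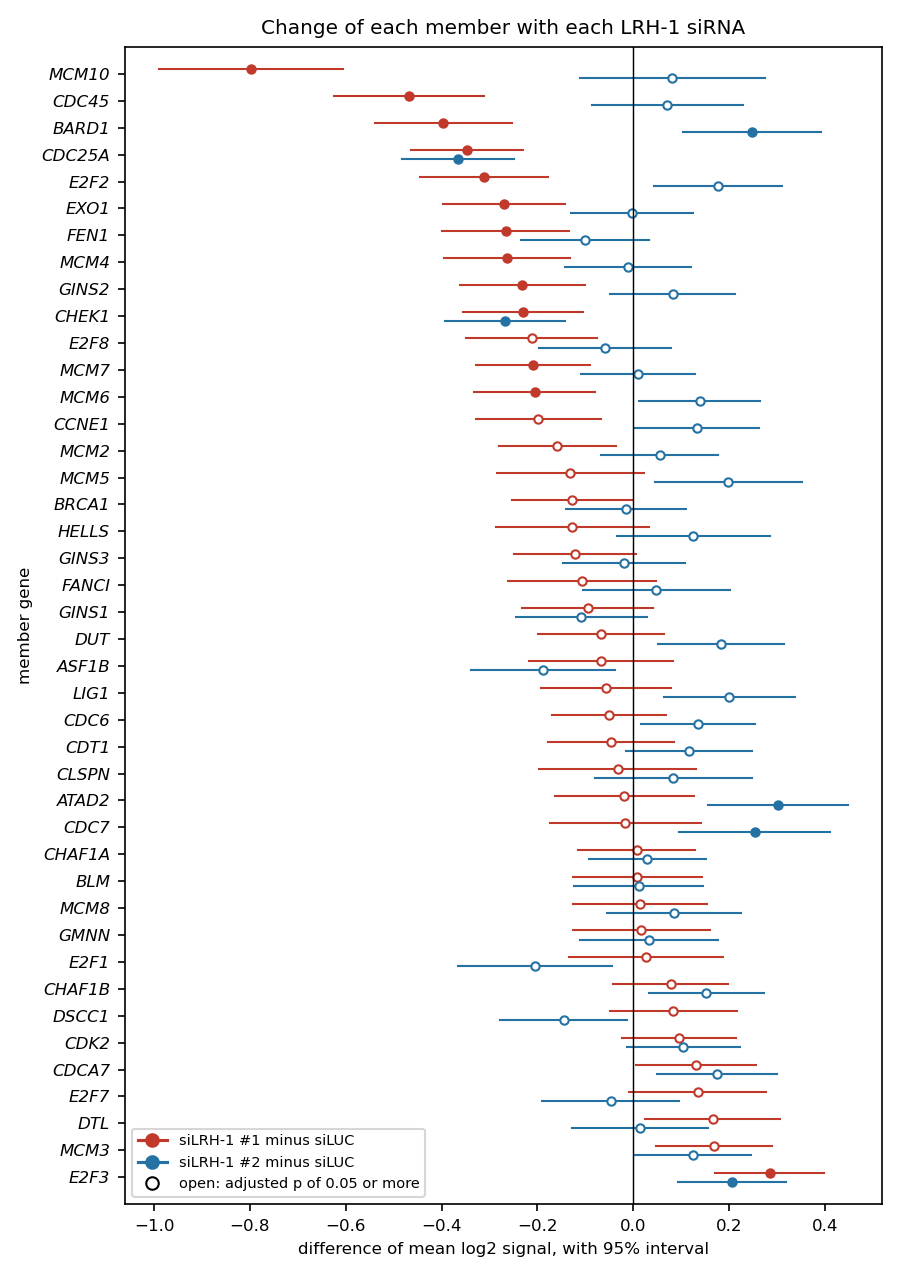
Difference of mean log2 signal from siLUC for each member (rows, ordered by the change with siLRH-1 #1), in red for siLRH-1 #1 and blue for siLRH-1 #2, with 95% intervals from limma and n = 4 per group. Filled points were called, 13 in red and 6 in blue.

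The siRNAs were then compared directly, which shows whether the members responded alike to both. Between the LRH-1 siRNAs, 18 of 42 members were lower with siLRH-1 #1 and 1, DSCC1, was higher, where 7.73% of named genes were called lower and 6.97% higher, and 11% and 10.1% of those above the median probe signal. The 18 were MCM10, BARD1, CDC45, E2F2, MCM6, CCNE1, MCM5, ATAD2, GINS2, CDC7, EXO1, LIG1, MCM4, HELLS, DUT, MCM7, MCM2 and CDC6. For 17 of them, all but HELLS, the 4 arrays of one siRNA lay apart from the 4 of the other. Here too the calls used the same arrays. Over all members the arrays lay apart for 18 lower and 2 higher, where 10.5% and 9.88% of named genes lay apart in these directions. The median difference over the members was -0.15, against 0.00 (-0.0049) over all named genes. Of the 18, 16 (88.9%) had means below siLUC with siLRH-1 #1 and above siLUC with siLRH-1 #2, as did 71.4% of the 567 named genes called lower in the same comparison. Against siLUC, 9 of the 18 were called lower with siLRH-1 #1 and 3 higher with siLRH-1 #2, while 7 were called in neither of those comparisons. The 3 comparisons share arrays, so the counts are not independent of each other. With 1 array left out, 14 to 18 were lower. The call of DSCC1 was lost when the array left out was siLRH-1 #1 replicate 3 or replicate 1 or 4 of siLRH-1 #2.

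The shift could be followed array by array. The median difference of the members from their siLUC means was -0.088, -0.098, -0.110 and -0.100 in the 4 siLRH-1 #1 arrays. It was 0.085, 0.057, 0.069 and 0.083 in the siLRH-1 #2 arrays, and 0.010, -0.024, -0.037 and 0.053 in the siLUC arrays. The 3 groups did not overlap on this measure, though the highest siLUC array (0.053) lay close to the lowest siLRH-1 #2 array (0.057). The median over all named genes stayed between -0.007 and 0.012 in every array. On it the siLUC arrays (-0.007 to 0.003) also lay below those of both LRH-1 siRNAs (0.005 to 0.012). Single members did not all follow the median of the members, as between 26 and 29 of the 42 lay below the siLUC mean in each siLRH-1 #1 array.

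**Figure D3:**
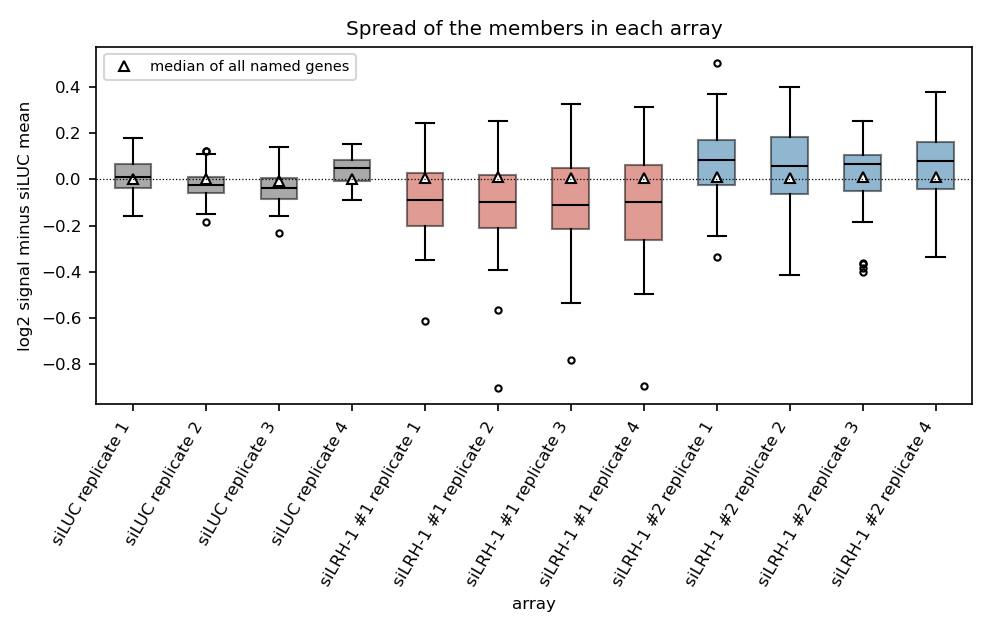
Box plots of the 42 members in each array, as log2 signal minus the siLUC mean of the same gene (box, quartiles; line, median; whiskers, farthest value within 1.5 box heights; circles, values beyond), with triangles for the median of all named genes. The siLRH-1 #1 boxes have medians from -0.110 to -0.088 and the siLRH-1 #2 boxes from 0.057 to 0.085.

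The genes that turn the MCM ring into a moving helicase held the largest change. MCM10 helps the assembled helicase to start unwinding. Its signal was 10.09, 9.73, 9.80 and 10.03 in the siLUC arrays, 9.30, 9.01, 9.13 and 9.02 with siLRH-1 #1, and 10.00, 10.10, 9.73 and 10.15 with siLRH-1 #2. All siLRH-1 #1 arrays lay below every other array, and the other groups overlapped. Against siLUC, MCM10 fell 1.74-fold under siLRH-1 #1 (log2 change -0.80, SE 0.09, adjusted p = 4.73e-06). Under siLRH-1 #2 its log2 change was 0.08 (adjusted p = 0.698). The difference between the siRNAs was -0.88 (95% interval -1.07 to -0.69, adjusted p = 8.11e-07). Its second probe gave the same picture, with log2 changes of -0.60 (adjusted p = 4.97e-05) and 0.21 (adjusted p = 0.136).

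CDC45, the subunit that joins MCM and GINS at the fork, behaved alike. Its signal was 11.90, 11.66, 11.78 and 11.88 with siLUC, 11.53, 11.24, 11.27 and 11.31 with siLRH-1 #1, and 11.96, 11.72, 11.86 and 11.96 with siLRH-1 #2. Again every siLRH-1 #1 array was below all others. Under siLRH-1 #1, CDC45 fell 1.38-fold (log2 change -0.47, SE 0.08, adjusted p = 0.000279). The siRNAs differed by -0.54 (adjusted p = 2.97e-05).

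GINS2, a subunit of the 4-protein GINS complex, fell 1.17-fold with siLRH-1 #1 (adjusted p = 0.0256). This call was lost when siLUC replicate 1 or 4, or replicate 3 or 4 of siLRH-1 #1, was left out (adjusted p = 0.087 to 0.0989), whereas its difference between the siRNAs held under all 21 alternative settings (log2 difference -0.31, adjusted p = 0.00157). GINS3 and GINS1, other subunits of the complex, were not called (log2 changes of -0.12 and -0.10 under siLRH-1 #1), and the GINS1 probe was dim (mean signal 5.95).

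CDC7, the kinase that phosphorylates MCM to fire origins, was at 8.78, 8.78, 8.80 and 8.75 with siLUC and at 8.80, 8.61, 8.80 and 8.85 with siLRH-1 #1. With siLRH-1 #2 it was at 9.28, 9.01, 8.86 and 8.98, so these arrays lay above all siLUC arrays, with replicate 1 the highest. It rose 1.19-fold (log2 change 0.25, SE 0.08, adjusted p = 0.0463). The rise was lost under 15 of 21 settings, among them without any of the siLUC arrays, without siLRH-1 #2 replicate 1, 2 or 4, without siLRH-1 #1 replicate 1, 3 or 4, and without moderation of the spread (highest adjusted p = 0.177, without siLRH-1 #2 replicate 1). Between the siRNAs, CDC7 differed by -0.27 (adjusted p = 0.0241). That call did not hold without siLRH-1 #1 replicate 2 (adjusted p = 0.0915), without siLRH-1 #2 replicate 1 (0.114) and without moderation of the spread (0.0951).

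MCM2 to MCM7 form the hexameric ring of the helicase. With siLRH-1 #1, 3 of these 6 fell and 5 of 6 lay below siLUC, where 7.64% of named genes above the median probe signal were called lower. With siLRH-1 #2 none was called (0 of 6), where 14.4% of those genes were, and 5 of 6 lay above siLUC. Between the siRNAs, 5 of 6 were called lower with siLRH-1 #1, all but MCM3, where 11% of those genes were called lower. MCM4 fell with siLRH-1 #1 (log2 change -0.26, adjusted p = 0.0112), and its second probe fell alike (-0.26, adjusted p = 0.0304). MCM7 and MCM6 fell 1.16-fold and 1.15-fold (adjusted p = 0.027 and 0.0412).

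Both of these last calls were weak. MCM7 was not called with siLRH-1 #1 without siLUC replicate 1, 2 or 4 or any of the siLRH-1 #1 arrays (adjusted p = 0.0541 to 0.0893), although a second probe of MCM7 was called (log2 change -0.28, adjusted p = 0.0088). Its dimmest probe, with a mean signal of 6.12, was not (log2 change -0.04, adjusted p = 0.839). MCM6 was not called without siLUC replicate 1, 2 or 4, siLRH-1 #1 replicate 1, 2 or 4 or siLRH-1 #2 replicate 1 (adjusted p = 0.0523 to 0.165), nor with quantile normalization applied again, with the 2 groups alone or with a replicate block (0.0543, 0.0605 and 0.0645). For MCM2 the log2 changes were -0.16 and 0.06 and for MCM5 -0.13 and 0.20, with siLRH-1 #1 given first, and neither gene was called against siLUC.

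The fall of MCM4 with siLRH-1 #1 held under all 21 settings. The difference between the siRNAs was -0.34 for MCM6 (adjusted p = 0.000451) and -0.33 for MCM5 (adjusted p = 0.00448), and both held under all 21 settings. It was -0.25 for MCM4, -0.22 for MCM7 and -0.21 for MCM2 (adjusted p = 0.0105, 0.0148 and 0.0205). These calls were lost without siLRH-1 #2 replicate 1 for MCM4 (0.0574), without siLRH-1 #2 replicate 4 for MCM7 (0.0573), and for MCM2 without siLRH-1 #1 replicate 4 (0.079) and without siLRH-1 #2 replicate 3 (0.0621). MCM3 stood apart from its partners, with log2 changes of 0.17 and 0.12 against siLUC (adjusted p = 0.0927 and 0.237) and a difference between the siRNAs of 0.04 (95% interval -0.08 to 0.16). MCM8, a related helicase of recombination repair, had log2 changes of 0.01 and 0.09 and was not called.

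Of the 4 genes that license origins or limit licensing, none was called against siLUC with either siRNA (0 of 4). Of all named genes 10.2% and 10% were called, and of those above the median probe signal 14.9% and 14.4%. CDC6 and CDT1 load the ring, geminin (GMNN) inhibits CDT1, and DTL is the ubiquitin ligase receptor that marks CDT1 for destruction. Their log2 changes ran from -0.05 to 0.17 with siLRH-1 #1 and from 0.01 to 0.13 with siLRH-1 #2. CDC6 differed between the siRNAs, by -0.19 (adjusted p = 0.0428). That call was lost under 11 of 21 settings, among them without siLUC replicate 2 or 4, without siLRH-1 #1 replicate 1, 3 or 4 and without any of the siLRH-1 #2 arrays (adjusted p = 0.0522 to 0.143).

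Among the G1/S regulators, 3 genes moved in 3 ways. CDC25A, the phosphatase that removes inhibitory phosphate from CDK2, fell with both siRNAs. Its signal was 9.85, 9.76, 9.82 and 9.71 with siLUC, 9.47, 9.48, 9.43 and 9.38 with siLRH-1 #1, and 9.45, 9.37, 9.40 and 9.45 with siLRH-1 #2. The siLUC arrays lay above all 8 others. The falls were 1.27-fold and 1.29-fold (log2 changes -0.35 and -0.37, SE 0.06, adjusted p = 0.000296 and 0.00018), and the siRNAs differed by 0.02 (95% interval -0.10 to 0.13). Its second probe also fell with both (-0.28 and -0.26, adjusted p = 0.00341 and 0.00661), and both falls of the brighter probe held under all 21 settings.

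E2F3, an activating E2F, went the other way. Its signal was 10.04, 10.05, 10.12 and 10.10 with siLUC, 10.32, 10.33, 10.40 and 10.39 with siLRH-1 #1, and 10.25, 10.30, 10.33 and 10.25 with siLRH-1 #2, so that the siLUC arrays lay below all others. It rose 1.22-fold and 1.15-fold (log2 changes 0.28 and 0.21, SE 0.05, adjusted p = 0.00164 and 0.0227). The rise with siLRH-1 #2 was lost when siLUC replicate 1 or 2, or replicate 2 or 3 of siLRH-1 #2, was left out (adjusted p = 0.0546 to 0.0653). The difference between the siRNAs was 0.08 (95% interval -0.035 to 0.192).

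E2F2, a second activating E2F, was called under siLRH-1 #1 and not under siLRH-1 #2. It was at 8.90, 8.74, 8.79 and 8.87 with siLUC, 8.66, 8.45, 8.52 and 8.42 with siLRH-1 #1, and 9.05, 9.05, 8.92 and 8.99 with siLRH-1 #2, and no group overlapped another. Its fall under siLRH-1 #1 was 1.24-fold (log2 change -0.31, SE 0.06, adjusted p = 0.00296). Under siLRH-1 #2 the log2 change was 0.18 (adjusted p = 0.107). The difference between the siRNAs was -0.49 (adjusted p = 1.33e-05).

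CCNE1 encodes cyclin E1, the partner of CDK2. Its signal was 9.74, 9.58, 9.66 and 9.60 with siLUC, 9.46, 9.34, 9.52 and 9.46 with siLRH-1 #1, and 9.81, 9.70, 9.72 and 9.88 with siLRH-1 #2. The siLRH-1 #1 arrays lay below all others, but the log2 change of -0.20 was not called (adjusted p = 0.0619), and neither was that of 0.13 with siLRH-1 #2 (adjusted p = 0.244). With an intensity trend in the spread or among the brighter probes the change with siLRH-1 #1 was called (0.0378 and 0.0238). The siRNAs differed by -0.33 (adjusted p = 0.000922), except when the gene's probes were averaged (adjusted p = 0.402). Its second probe was dim (mean signal 6.35) and had a difference of 0.16 (adjusted p = 0.21).

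The other G1/S regulators were not called in any of the 3 comparisons. They were CDK2, E2F1, an activating E2F, and E2F7 and E2F8, repressive E2Fs. E2F8 came nearest, at -0.21 under siLRH-1 #1 (adjusted p = 0.0562) and -0.06 under siLRH-1 #2 (log2 changes). The log2 changes of E2F1 were 0.03 and -0.21 (adjusted p = 0.911 and 0.123).

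**Figure D4:**
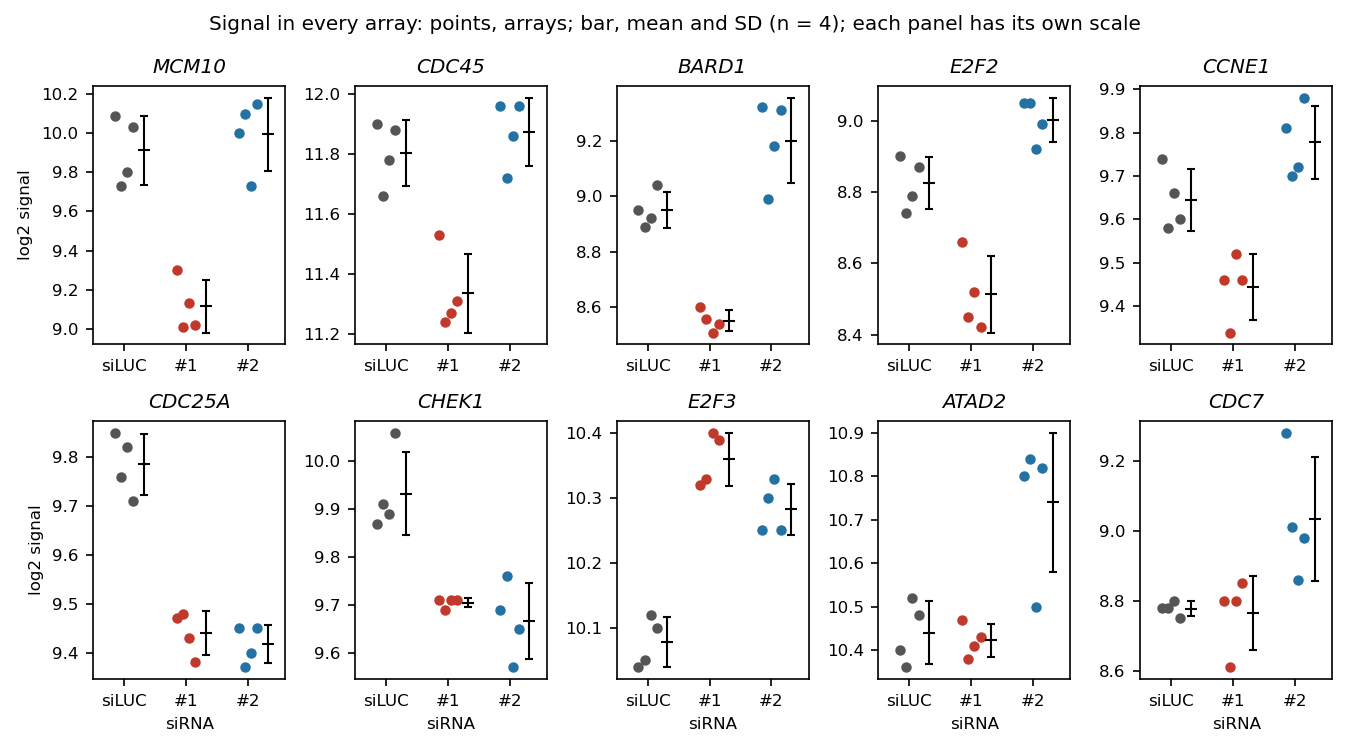
Log2 signal of 10 members in every array, with 1 panel and 1 scale per gene, coloured points for arrays and black bars for the mean and SD (n = 4). In MCM10, CDC45, BARD1, E2F2 and CCNE1 the siLRH-1 #1 points lie below those of both other groups. In CDC25A and CHEK1 both LRH-1 siRNAs lie below siLUC, and in E2F3 both lie above. The siLRH-1 #2 points lie above both other groups in CDC7, and most of them do so in ATAD2.

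Checkpoint and repair genes gave 3 falls with siLRH-1 #1 among 7 with a named probe. Of all named genes 5.17% fell, and of those above the median probe signal 7.64%. With siLRH-1 #2 they gave 1 fall and 1 rise, where 4.88% and 5.14% of all named genes did so. Among named genes above the median probe signal the shares were 7.14% and 7.3%. BARD1, the partner of BRCA1 in a ubiquitin ligase, was at 8.95, 8.89, 8.92 and 9.04 with siLUC, 8.6, 8.56, 8.51 and 8.54 with siLRH-1 #1, and 9.32, 8.99, 9.18 and 9.31 with siLRH-1 #2. The siLRH-1 #1 arrays lay below all others, while siLRH-1 #2 replicate 2 fell within the siLUC range. Under siLRH-1 #1 its fall was 1.32-fold (log2 change -0.40, SE 0.07, adjusted p = 0.00062), and under siLRH-1 #2 its rise was 1.19-fold (log2 change 0.25, SE 0.07, adjusted p = 0.0303). BARD1 was the 1 member called in opposite directions, as were 0.409% of named genes.

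The rise of BARD1 was less stable than its fall. It was lost without siLUC replicate 1, 2 or 3, without siLRH-1 #2 replicate 1, 3 or 4, with the 2 groups alone and without moderation of the spread (adjusted p = 0.0541 to 0.111). Its difference between the siRNAs, -0.64 (95% interval -0.79 to -0.50, adjusted p = 1.06e-06), was called under all 21 settings.

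CHEK1, the kinase that restrains the cycle when forks stall, fell with both siRNAs. It was at 9.87, 9.91, 9.89 and 10.06 with siLUC, 9.71, 9.69, 9.71 and 9.71 with siLRH-1 #1, and 9.69, 9.76, 9.57 and 9.65 with siLRH-1 #2. All siLUC arrays lay above the other 8. The log2 changes were -0.23 and -0.27 (SE 0.06, adjusted p = 0.0207 and 0.00683), the first call being lost without siLUC replicate 4 or siLRH-1 #1 replicate 4 (adjusted p = 0.0933 and 0.053). The siRNAs differed by 0.04 (95% interval -0.09 to 0.16).

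EXO1, an exonuclease of mismatch and break repair, fell 1.21-fold with siLRH-1 #1 (adjusted p = 0.00707). Under siLRH-1 #2 it was not called, at a log2 change of -0.0029. Its other probes, with mean signals of 7.22 and 5.91, were not called with siLRH-1 #1 (adjusted p = 0.0828 and 0.446). BRCA1 was not called by its brighter probe (log2 change -0.13 with siLRH-1 #1, adjusted p = 0.259), but its other probe was (-0.32, adjusted p = 0.00213). CLSPN, the claspin adaptor of CHEK1, BLM, a RecQ helicase, and FANCI, of the Fanconi anaemia pathway, were not called in any comparison, and the CLSPN probe was dim (mean signal 6.18).

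At the fork, FEN1, the nuclease that trims the flaps of Okazaki fragments, fell with siLRH-1 #1 (log2 change -0.27, adjusted p = 0.0113). The fall was not called when siLRH-1 #1 replicate 4 was left out (adjusted p = 0.0548), and its second probe was not called (-0.16, adjusted p = 0.117). LIG1, the ligase that joins these fragments, and DUT, which removes dUTP, were not called against siLUC, but differed between the siRNAs, by -0.26 and -0.25 (adjusted p = 0.0121 and 0.0109). The call of DUT was lost when its 3 probes were averaged (adjusted p = 0.0592). DSCC1, of an alternative clamp loader that acts in sister chromatid cohesion, differed between the siRNAs by 0.23, with siLRH-1 #1 the higher (adjusted p = 0.0231). The adjusted p was 0.06 to 0.101 without siLRH-1 #1 replicate 3 and without replicate 1 or 4 of siLRH-1 #2.

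Among 6 genes that handle chromatin behind the fork, none was called with siLRH-1 #1 (0 of 6). Of all named genes 10.2% were called, and of those above the median probe signal 14.9%. ATAD2, a bromodomain ATPase, was at 10.40, 10.36, 10.52 and 10.48 with siLUC, 10.47, 10.38, 10.41 and 10.43 with siLRH-1 #1, and 10.80, 10.84, 10.50 and 10.82 with siLRH-1 #2. In that last group replicate 3 lay within the siLUC range and the other 3 arrays above it. The rise of ATAD2 under siLRH-1 #2 was 1.23-fold (log2 change 0.30, SE 0.07, adjusted p = 0.0089), and the siRNAs differed by -0.32 (adjusted p = 0.00361). Both calls held under all 21 settings.

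HELLS, a chromatin remodeller, differed between the siRNAs by -0.25 (adjusted p = 0.0381). This was lost without siLRH-1 #1 replicate 1, 2 or 3, without siLRH-1 #2 replicate 1, 2 or 4, without moderation and with its probes averaged (adjusted p = 0.0643 to 0.126). Its partner CDCA7, the CAF-1 subunits CHAF1A and CHAF1B, which deposit histones on new DNA, and the histone chaperone ASF1B were not called in any comparison. Over all roles, 19 members were called in no comparison and 23 of 42 in at least 1, where 22.4% of all named genes and 31.9% of those above the median probe signal were called in at least 1.

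With both siRNAs CDC25A and CHEK1 were called lower and E2F3 higher, which makes 3 of 42 members called alike with both. Among all named genes 0.859% were lower and 1.84% higher with both, and both comparisons use the same siLUC arrays.

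Within each comparison, the share of members with the E2F letters was close between those called lower and those not called. Some members not called in 1 comparison were called in another. Whether E2F factors bind or control these genes was not tested. Of 11 members with a promoter window that fell with siLRH-1 #1, 6 (54.5%) held them, and of 23 not called, 13 (56.5%). In the direct comparison the share was 60% of the 15 members with a window that were called lower, and 55% of the 20 that were not. MCM10, CDC45, BARD1 and CHEK1 did not hold these exact letters in their windows, which does not show that E2F sites are missing. E2F2, CDC25A and E2F3 each held them once, as printed above.

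Of 56 other replication genes listed for comparison, 8 had a named probe. The rest of the list was not shown to be absent from the arrays, since 6621 probes carried no symbol. Against siLUC, 1 of the 8 (12.5%) was called with each siRNA, where 10.2% and 10% of all named genes were. Among named genes above the median probe signal the shares were 14.9% and 14.4%. Between the siRNAs 2 of the 8 (25%) were called, where 14.7% of all named genes and 21.1% of the brighter ones were. Among the 8, GINS4, the fourth GINS subunit, fell with siLRH-1 #1 (log2 change -0.23, adjusted p = 0.0461), and CDC25C, a mitotic phosphatase, rose with siLRH-1 #2 (log2 change 0.24, adjusted p = 0.0238). GINS4 and CCNA2, cyclin A2, differed between the siRNAs by -0.24 and -0.21 (adjusted p = 0.0305 and 0.0175). The median over the 8 genes was 0.01 with siLRH-1 #1, 0.08 with siLRH-1 #2 and -0.11 between the siRNAs. With siLRH-1 #1, 3 of the 8 lay below zero and 5 above, and with siLRH-1 #2 all 8 lay above. RPA1, DBF4, MCMBP, DNA2 and MSH6 were not called in any comparison.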

How the data were processed

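Illumina HumanHT-12 v4 arrays measured the RNA of HT29 cells. The authors processed the images in GenomeStudio, dropped probes whose detection p exceeded 0.05 in all samples, and then used Partek to take log2 and quantile-normalize. The software versions were not given in the sources read for this work. The deposited log2 values of 16381 probes on 12 arrays were used as they stand. Another table held 24 columns that the labels give to no sample, and it was not used.

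Groups came from the sample labels. Probes were named through the platform annotation (9756 with 1 symbol, 4 with several, 6621 with none). The fit used limma 3.58.1 (R 4.3.3; 1 mean per group, contrasts, eBayes, 9 residual and 12.1 prior degrees of freedom) and was tested on simulated data. Tests were two-sided, and p-values were adjusted over all probes by the Benjamini-Hochberg method. SE and 95% intervals come from this fit. With 4 arrays a group, the number of arrays limits the precision. The alternatives were other normalizations, spread models, filters, probe rules, a replicate block and leaving out each array. Members called in any comparison were named, and values in every array were given for those called alike with both siRNAs, the 4 largest calls of each comparison, and CCNE1. The members and lists were chosen with earlier results of these data known.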

Additional observations from a re-analysis of the deposited data

Results flagged for a closer look

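In siLRH-1 #2, ATAD2 had a lone array. Replicate 3 was at 10.5, while the other 3 arrays lay between 10.80 and 10.84. Among 30 groups of 4 arrays examined in this way (10 genes in 3 groups), chance marks about 1 in 20. BARD1 was called lower with siLRH-1 #1 and higher with siLRH-1 #2, and the difference between the siRNAs was itself called (log2 difference -0.6446, adjusted p = 1.06e-06).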

How the results depend on the processing

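Of 38 member calls, 21 held under all 21 alternatives and 17 were lost under at least 1. The counts of members that fell stayed within 1.5 times their values, except that 7 in place of 12 fell with siLRH-1 #1 without siLRH-1 #1 replicate 4. Leaving out 1 array at a time, 7 to 13 members fell and 1 to 2 rose with siLRH-1 #1, 2 fell and 1 to 4 rose with siLRH-1 #2, and 14 to 18 were lower and 0 to 1 higher between the siRNAs. The number called alike with both siRNAs was then 2 to 3. The medians of the members ran from -0.1087 to -0.0541, from 0.0404 to 0.101 and from -0.1635 to -0.1315. Without moderation of the spread, 2 members rose with each siRNA. With an intensity trend, 2 rose with siLRH-1 #1. With the 2 groups alone, 2 rose with siLRH-1 #2 and 2 were higher in the direct comparison. Among the brighter probes, where fewer probes were tested, 2 rose with siLRH-1 #1, 8 with siLRH-1 #2, and 2 were higher between the siRNAs. Averaging its probes turned the uncalled change of CCNE1 with siLRH-1 #2 to -0.0443. Otherwise the cause was not tested. Same-numbered arrays did not pair (r of deviations from -0.15 to 0.20 over 12 pairs, best with the own number in 2). With the replicate block, 12 members fell with siLRH-1 #1, 4 rose with siLRH-1 #2 and 17 were lower between the siRNAs. A start from raw signals was not run, since their columns could not be given to samples. Dim probes, such as those of GINS1 and CLSPN, limit what a missing call says.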
